A study of Homo sapiens with 25 samples.

Results

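The loci described are those of 6 genes of the GFI1 and LSD1 corepressor machinery in NB4 cells, a human cell line from acute promyelocytic leukemia. They were chosen as fixed windows on the hg18 build, and every peak of the 23 deposited peak lists that overlaps a window by at least 1 base is a member. The windows are 92.68 to 92.76 Mb of chromosome 1 for GFI1, 134.82 to 134.88 Mb of chromosome 9 for GFI1B and 23.21 to 23.29 Mb of chromosome 1 for KDM1A, which encodes LSD1. RCOR1 has 102.11 to 102.28 Mb of chromosome 14, HMG20B 3.51 to 3.54 Mb of chromosome 19 and HDAC1 32.52 to 32.58 Mb of chromosome 1. They hold 620 of the 918840 peaks of the series, of which 132 lie in the GFI1 window, 132 in GFI1B, 55 in KDM1A, 162 in RCOR1, 72 in HMG20B and 67 in HDAC1. A window can reach into neighbouring genes, which on GRCh38.p14 are RPAP2 and EVI5 for GFI1, TSC1 and GTF3C5 for GFI1B, TEX46 and LUZP1 for KDM1A, ANKRD9 and TRAF3 for RCOR1, TEKTIP1 and GIPC3 for HMG20B, and LCK and MARCKSL1 for HDAC1.

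Chromatin was profiled by ChIP-seq after 24 h of exposure. The groups were MC_2580, an LSD1 inhibitor of unstated dose; MC_2580 together with retinoic acid (RA) at 0.01 µM, called the combination below; RA at 0.01 µM; RA at 1 µM; and DMSO, the vehicle. H3K4me1, H3K4me2, H3K4me3 and H3K27ac were profiled in all 5 conditions, LSD1 in MC_2580 and in DMSO, and GFI1 in untreated cells only. Each antibody and condition has 1 library, so no difference below has a replicate check and none was tested. For H3K4me3 in the combination, the labels disagree on RA, with 1 µM in the title and 0.01 µM under treatment. The dose of 0.01 µM was taken, so every H3K4me3 value of the combination carries that doubt.

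The scores quoted are the authors' values per peak, and they rank peaks only within their own list. They pile up at 3100, with some peaks of the histone and LSD1 lists higher, up to 3233.06, and whether those are stronger is not known here. Scores of different lists stand side by side below as descriptions. Read numbers are unknown, so a missing peak means that none was called and not that the mark was absent. H3K4me3 lists held 26271 to 29872 peaks in the treated conditions, against 21688 in DMSO. H3K27ac lists held 24552 peaks in MC_2580 and 55793 in RA 0.01 µM, the shortest and the longest, against 32789 in DMSO. The LSD1 lists held 18822 peaks in MC_2580 and 12562 in DMSO, with different lowest scores, 357 in MC_2580 and 234.04 in DMSO. Cell type markers were not checked, since no hg18 gene positions were used.

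GFI1 and its relative GFI1B are zinc finger repressors of blood cell development. Through a short N-terminal SNAG domain they bind LSD1, which removes methyl groups from H3K4me1 and H3K4me2. LSD1 works with RCOR1 (CoREST), the scaffold that couples it to nucleosomes, with the histone deacetylase HDAC1, and with HMG20B (BRAF35), a subunit with a DNA-binding HMG domain. GFI1 and GFI1B are known in blood cells to repress their own and each other's genes, which makes binding of GFI1 and LSD1 at these loci the first question here.

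The core of the DNA sequence bound by the GFI1 and GFI1B zinc fingers is AATC. Because their own promoters are the places where self-binding has been described, upstream sequence is shown for GFI1 and GFI1B, from RefSeq on GRCh38.p14. Each line is 250 bases before a listed transcript start, 5′ to 3′ on the gene's strand, with AATC or its reverse complement GATT in capitals. They come from chr1:92486926-92487175 on the minus strand for GFI1, the first of its 3 listed starts, and from chr9:132945281-132945530 and chr9:132978444-132978693 on the plus strand for the 2 starts of GFI1B. These coordinates belong to another build than the peaks, and no peak was placed on them.
GFI1 start 1: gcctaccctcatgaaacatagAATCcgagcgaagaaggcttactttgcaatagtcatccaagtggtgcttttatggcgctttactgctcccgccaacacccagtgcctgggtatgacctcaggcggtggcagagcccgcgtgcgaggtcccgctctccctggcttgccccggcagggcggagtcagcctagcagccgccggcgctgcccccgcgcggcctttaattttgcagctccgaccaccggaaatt
GFI1B start 1: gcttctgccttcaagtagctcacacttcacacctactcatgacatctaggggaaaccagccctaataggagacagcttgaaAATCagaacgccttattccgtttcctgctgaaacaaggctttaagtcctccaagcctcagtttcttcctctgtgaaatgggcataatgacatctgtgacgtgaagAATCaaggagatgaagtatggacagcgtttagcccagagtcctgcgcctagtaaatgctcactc
GFI1B start 2: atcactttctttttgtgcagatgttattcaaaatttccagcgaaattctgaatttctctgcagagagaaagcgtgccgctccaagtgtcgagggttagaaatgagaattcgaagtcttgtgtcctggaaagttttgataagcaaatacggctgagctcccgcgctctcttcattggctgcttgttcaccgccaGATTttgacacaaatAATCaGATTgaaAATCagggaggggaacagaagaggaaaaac
Counted on both strands, the GFI1 sequence holds 1 match, the GFI1B sequences hold 2 at start 1 and 4 at start 2, and the other starts of GFI1 hold 0 at start 2 and 1 at start 3. The KDM1A sequence holds 0, RCOR1 1, HMG20B 2 and HDAC1 1. Of 35116 promoters of the same length in the table, 64.8% hold at least 1 match and 7.15% hold 4 or more, as GFI1B start 2 does. The longer string AAATC, which contains AATC, occurs in 29.9% of them, with 2 or more in 7.86%, as at GFI1B start 2.

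GFI1 peaks were called in 5 of the 6 windows, and LSD1 peaks in all 6, at HMG20B in MC_2580 only. Both proteins thus had peaks in the windows of the genes that encode them, though peaks were not placed on genes. Within 40 kb of the centre of the KDM1A H3K4me3 peak in DMSO lay 1 LSD1 peak in each condition. That number was matched or passed around 63.2% of H3K4me3 peaks in DMSO for LSD1 in DMSO, and around 80.4% for LSD1 in MC_2580. The GFI1 window held 9 of the 18 GFI1 peaks, GFI1B 4, RCOR1 3, KDM1A 1, HDAC1 1 and HMG20B 0. LSD1 had 13 peaks in the windows in MC_2580 and 14 in DMSO. GFI1 and KDM1A had the same number in both conditions, 3 at GFI1 and 1 at KDM1A. GFI1B had 3 in MC_2580 and 5 in DMSO, and HDAC1 had 2 in MC_2580 and 3 in DMSO. RCOR1 had 3 in MC_2580 and 2 in DMSO, and HMG20B had 1 in MC_2580 and 0 in DMSO. The GFI1 library comes from untreated cells, so it cannot show whether an inhibitor moved GFI1.

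GFI1 peaks at these loci lay on LSD1 more often than GFI1 peaks did over the whole list. Of the 18, 12 overlapped an LSD1 peak in MC_2580 (66.7%, exact binomial 95% interval 41.0 to 86.7%, against 37.7% of 29601 GFI1 peaks). The count in DMSO was also 12 of 18 (66.7%, same interval, against 30.0%), and 13 overlapped LSD1 in at least 1 of the conditions. At GFI1 itself the counts were 6 of 9 in MC_2580 and 5 of 9 in DMSO, and at GFI1B all 4 peaks lay on LSD1 in both. Seen from LSD1, 7 of 13 peaks in MC_2580 overlapped a GFI1 peak (53.8%, interval 25.1 to 80.8%, against 44.7%), and 10 of 14 in DMSO did (71.4%, interval 41.9 to 91.6%, against 56.8%). These intervals cover counting error only, and since 13 of the 18 GFI1 peaks come from the GFI1 and GFI1B windows, neighbouring peaks are not independent.

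The overlap of GFI1 peaks with LSD1 went with their score and with H3K4me1 beneath them. With a score of 100 or more, 10 of 11 window peaks lay on LSD1 in MC_2580 (90.9%, interval 58.7 to 99.8%, against 53.0% of all GFI1 peaks of that score). In DMSO 11 of 11 did (100.0%, interval 71.5 to 100.0%, against 49.7%). Below 100, 2 of 7 lay on LSD1 in MC_2580 (28.6%, interval 3.67 to 71.0%, against 30.3%) and 1 of 7 in DMSO (14.3%, interval 0.361 to 57.9%, against 20.5%). Of the 14 window peaks that lay on H3K4me1 in DMSO, 12 overlapped LSD1 in MC_2580 (85.7%, interval 57.2 to 98.2%, against 62.0%) and 11 in DMSO (78.6%, interval 49.2 to 95.3%, against 49.0%). The 4 peaks off H3K4me1 had 0 on LSD1 in MC_2580 (0.0%, interval 0.0 to 60.2%, against 3.39%) and 1 in DMSO (25.0%, interval 0.631 to 80.6%, against 3.18%). The 14 of 18 on H3K4me1 compare with 58.5% of the whole GFI1 list, and for the other marks in DMSO the counts were 12 on H3K4me2 (whole list 36.0%), 10 on H3K4me3 (30.2%) and 13 on H3K27ac (41.7%). Over the whole lists, 95.6% of LSD1 peaks in MC_2580 and 95.8% in DMSO lay on H3K4me1 in DMSO. A GFI1 peak off H3K4me1 thus had few LSD1 peaks to meet. Both splits were made after seeing the data. Window peaks of 99.21 and 94.84 fell just below the score cut, and those of 100.99 and 102.14 just above it. The part of score and H3K4me1 in the overlap was not tested.

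The GFI1 gene carried the densest GFI1 binding of the set. Within 40 kb of the centre of the widest H3K4me3 peak of its window in DMSO there were 9 GFI1 peaks, a number matched or passed around 4.6% of the 21688 H3K4me3 peaks in DMSO, where the median was 1. The highest score, 490.64, belonged to chr1:92723433-92725036 and was above 97.0% of the GFI1 list. Next came chr1:92719999-92721322 with 289.79, chr1:92717357-92718458 with 257.77 and chr1:92722023-92723185 with 206.3. All 4 lay inside the H3K4me3 peak of DMSO, chr1:92710991-92728135, with LSD1 in both conditions. The remaining 5 scored 130.44, 99.21, 63.7, 56.91 and 53.7, and the lowest of them spans the window's edge.

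LSD1 covered more of the GFI1 window in MC_2580 than in DMSO, 17.0 kb against 10.8 kb. In MC_2580 its peaks were chr1:92694037-92699851 with a score of 2567.44, chr1:92713156-92715177 with 436.51 and chr1:92715779-92724960 with 1269.77. In DMSO they were chr1:92697233-92699925 with 1138.83, chr1:92717439-92718967 with 324.76 and chr1:92719112-92725643 with 1468.48. The short middle peak of MC_2580 overlapped no LSD1 peak in DMSO, and the wide one overlapped both of the DMSO peaks that lie on the H3K4me3 peak. Every one of the 3 LSD1 peaks in DMSO overlapped a GFI1 peak, as did 2 of the 3 in MC_2580.

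**Figure D1:**
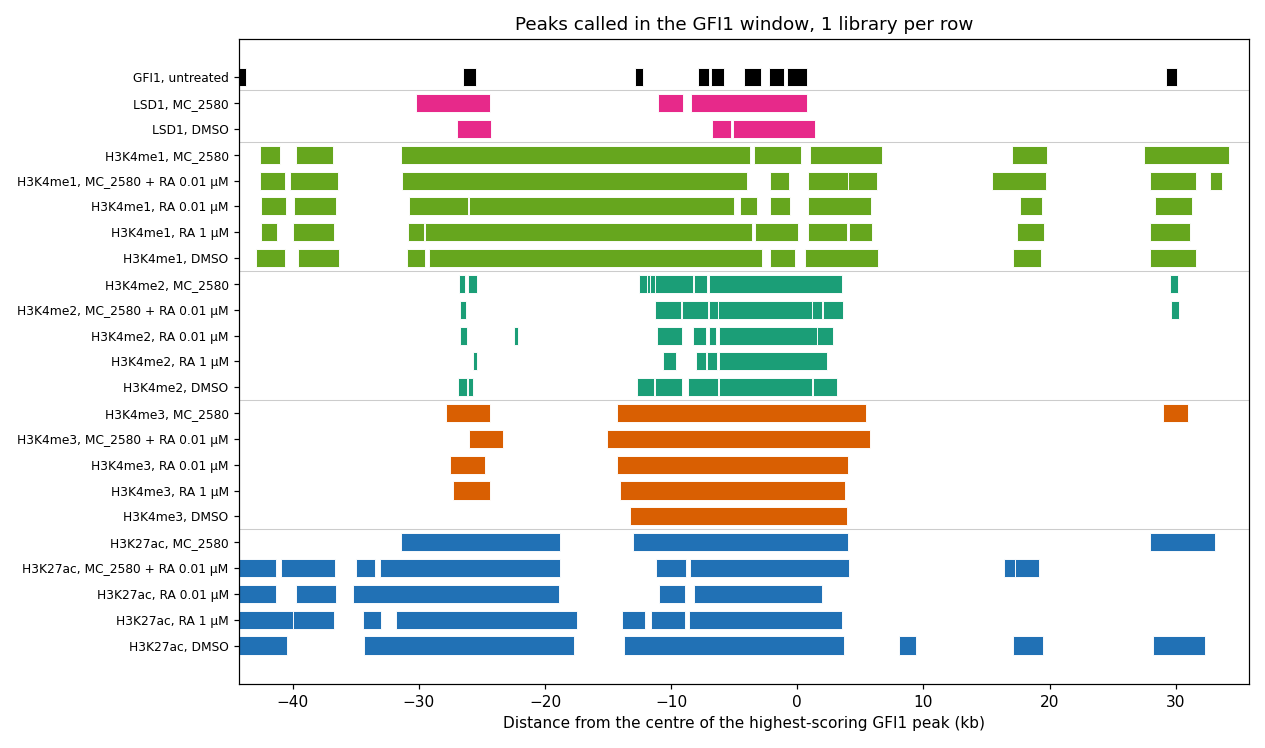
Peaks in the GFI1 window as bars along the distance from the centre of the GFI1 peak that scored 490.64 (x axis, kb), with 1 row per antibody and condition (y axis). Around 26 kb left of it, H3K4me3 bars appear in the 4 treated rows and not in DMSO; near the right end, an H3K27ac bar appears in MC_2580 and DMSO and in none of the 3 rows with RA.

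A site bound by both GFI1 and LSD1 carried H3K4me3 in all 4 treated lists and not in DMSO. The GFI1 peak there is chr1:92697726-92698762, with a score of 130.44, and its centre was 1300 bases from that of the LSD1 peak in MC_2580 and 335 bases from that in DMSO. H3K4me3 covered 3464 bases in MC_2580, 2652 in the combination, 2784 in RA 0.01 µM and 2910 in RA 1 µM of the joined region chr1:92696404-92700880, against 0 in DMSO. The scores were 603.69 in MC_2580, 167.58 in the combination, 459.7 in RA 0.01 µM and 256.0 in RA 1 µM. H3K4me1, H3K4me2 and H3K27ac were called at the GFI1 peak in all 5 conditions. The H3K4me3 list in DMSO is the shortest of its 5, and the part of list length in this difference was not tested.

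The main H3K4me3 peak of the GFI1 window was 19745 bases wide in MC_2580, 20854 in the combination, 18313 in RA 0.01 µM and 17821 in RA 1 µM, against 17145 in DMSO. It scored 3100 in all 5 lists. Over the window, H3K4me3 covered 25.2 kb in MC_2580, 23.5 kb in the combination, 21.1 kb in RA 0.01 µM and 20.7 kb in RA 1 µM, against 17.1 kb in DMSO. All 4 treated values were above DMSO, and log2 ratios ran from 0.27 to 0.55. As plain ratios these were 1.47 in MC_2580, 1.37 in the combination, 1.23 in RA 0.01 µM and 1.21 in RA 1 µM. The whole H3K4me3 lists gave 1.57 in MC_2580, 1.32 in the combination, 1.5 in RA 0.01 µM and 1.33 in RA 1 µM. H3K27ac in the window went the other way, with 34.8 kb in MC_2580, 40.8 kb in the combination, 34.6 kb in RA 0.01 µM and 39.9 kb in RA 1 µM, all under the 45.7 kb in DMSO. Its widest peak in DMSO, chr1:92710483-92727968, coincides with the H3K4me3 peak and was 17486 bases wide.

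Separate H3K27ac regions flank the GFI1 gene's central block and were not called in the same conditions. The region chr1:92752197-92757340 was called in MC_2580, with a score of 950.64 over 5144 bases, and in DMSO, with 1277.38 over 4101 bases, and in none of the 3 lists with RA. H3K4me1 was called there in all 5 lists, and the GFI1 peak that scored 63.7 lies inside it. At the opposite end, the joined region chr1:92679220-92687642 was missing from MC_2580 alone. It held 2 peaks in each list with RA and 1 in DMSO, chr1:92679733-92683751 with 320.51. The first peak scored 253.83 in the combination, 548.27 in RA 0.01 µM and 307.28 in RA 1 µM. The second, with no separate counterpart in DMSO, scored 830.12 in the combination, 694.16 in RA 0.01 µM and 980.29 in RA 1 µM. A weaker region, chr1:92740616-92743689, was called in the combination with 77.29 and in DMSO with 82.19. H3K4me1 formed 6 regions in the window and all 6 were called in all 5 conditions. Each of the 3 H3K27ac regions just named overlaps at least 1 of them.

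GFI1B had the highest ratio of H3K4me3 coverage to DMSO among the 6 loci, in MC_2580. Its window had 24.6 kb under H3K4me3 in MC_2580, 21.9 kb in the combination, 18.4 kb in RA 0.01 µM and 13.9 kb in RA 1 µM, against 11.8 kb in DMSO. The log2 ratios over DMSO were 1.05 in MC_2580, 0.89 in the combination, 0.64 in RA 0.01 µM and 0.23 in RA 1 µM. As plain ratios these were 2.07 in MC_2580, 1.85 in the combination, 1.55 in RA 0.01 µM and 1.17 in RA 1 µM. The whole H3K4me3 lists gave 1.57 in MC_2580, 1.32 in the combination, 1.5 in RA 0.01 µM and 1.33 in RA 1 µM. All 4 treatments were above DMSO in the joined region chr9:134842823-134852662, covered for 8977 bases in MC_2580, 9840 in the combination, 9400 in RA 0.01 µM and 6989 in RA 1 µM, against 4121 in DMSO. That region scored 3100 in the 4 treated lists, a score reached or passed by 31.5% of peaks in MC_2580, 23.6% in the combination, 36.1% in RA 0.01 µM and 33.6% in RA 1 µM. In DMSO its best score was 421.23, above 44.1% of that list.

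Every GFI1 peak of the GFI1B window lay on LSD1 in MC_2580 and in DMSO and on all 4 marks in all 5 conditions. They are chr9:134843381-134844370 with a score of 150.97, chr9:134847105-134848179 with 485.47, chr9:134859300-134860374 with 163.13 and chr9:134869142-134870162 with 117.93. The first and second lie in the joined H3K4me3 region named above. Their centres were 171 and 492 bases from the nearest LSD1 centre in DMSO. The score of 485.47 was above 96.9% of the GFI1 list, so GFI1B and GFI1 each held a GFI1 peak of that rank.

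LSD1 formed 3 peaks in MC_2580 at GFI1B, chr9:134842172-134844910 with a score of 507.42, chr9:134846541-134864808 with 2454.48 and chr9:134866070-134871813 with 2015.6. The 5 peaks in DMSO were chr9:134842438-134844971 with 732.78, chr9:134846003-134850265 with 1151.11, chr9:134853169-134855627 with 324.88, chr9:134855632-134863050 with 755.43 and chr9:134866780-134870424 with 830.68. The middle peak of MC_2580 was 18268 bases wide and overlapped 3 of those in DMSO, so fewer peaks covered more bases, 26.8 kb in MC_2580 against 20.3 kb in DMSO. Around its H3K4me3 peak of highest score, 6 LSD1 peaks in DMSO lay within 40 kb, a span that reaches past the window. That number was matched or passed at 3.1% of H3K4me3 peaks in DMSO. For LSD1 in MC_2580 the number was 4, matched or passed at 20.4% of them.

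Some GFI1B regions were called only where MC_2580 was present, alone or with RA. H3K4me1 at chr9:134837570-134839863 scored 78.92 in MC_2580 and 257.52 in the combination. H3K4me2 at chr9:134853929-134855476 scored 168.51 in MC_2580 and 629.73 in the combination, and it lies under LSD1 in both LSD1 lists. H3K4me3 at chr9:134872684-134875336 scored 63.81 in MC_2580 and 181.6 in the combination. None of the 3 was called in RA 0.01 µM, RA 1 µM or DMSO. Inside the H3K4me1 region, though, H3K4me2 at chr9:134837899-134838528 was called in all 5 conditions. Its scores were 877.74 in MC_2580, 1090.28 in the combination, 519.44 in RA 0.01 µM and 884.33 in RA 1 µM, against 305.98 in DMSO. H3K27ac at chr9:134834817-134837201, with 110.99, and at chr9:134837504-134839661, with 267.58, was called in RA 0.01 µM alone.

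H3K27ac and H3K4me1 formed a long block over GFI1B in every condition. The widest H3K27ac peak in DMSO was chr9:134843591-134872242, 28652 bases wide with a score of 1088.15, wider than 99.7% of its list. H3K27ac covered 32.0 kb in MC_2580, 35.6 kb in the combination, 38.2 kb in RA 0.01 µM and 33.0 kb in RA 1 µM, against 30.1 kb in DMSO. H3K4me1 covered 34.4 kb in MC_2580 and 37.7 kb in the combination, against 30.0 kb in RA 0.01 µM, 30.2 kb in RA 1 µM and 30.3 kb in DMSO. For H3K4me2 the values were 18.8 kb in MC_2580, 22.9 kb in the combination, 16.4 kb in RA 0.01 µM and 15.5 kb in RA 1 µM, against 15.2 kb in DMSO. At the third H3K4me3 region, peaks were 3946 to 5038 bases wide in the treated lists, against 2910 for chr9:134867152-134870061, the widest H3K4me3 peak in DMSO.

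**Figure D2:**
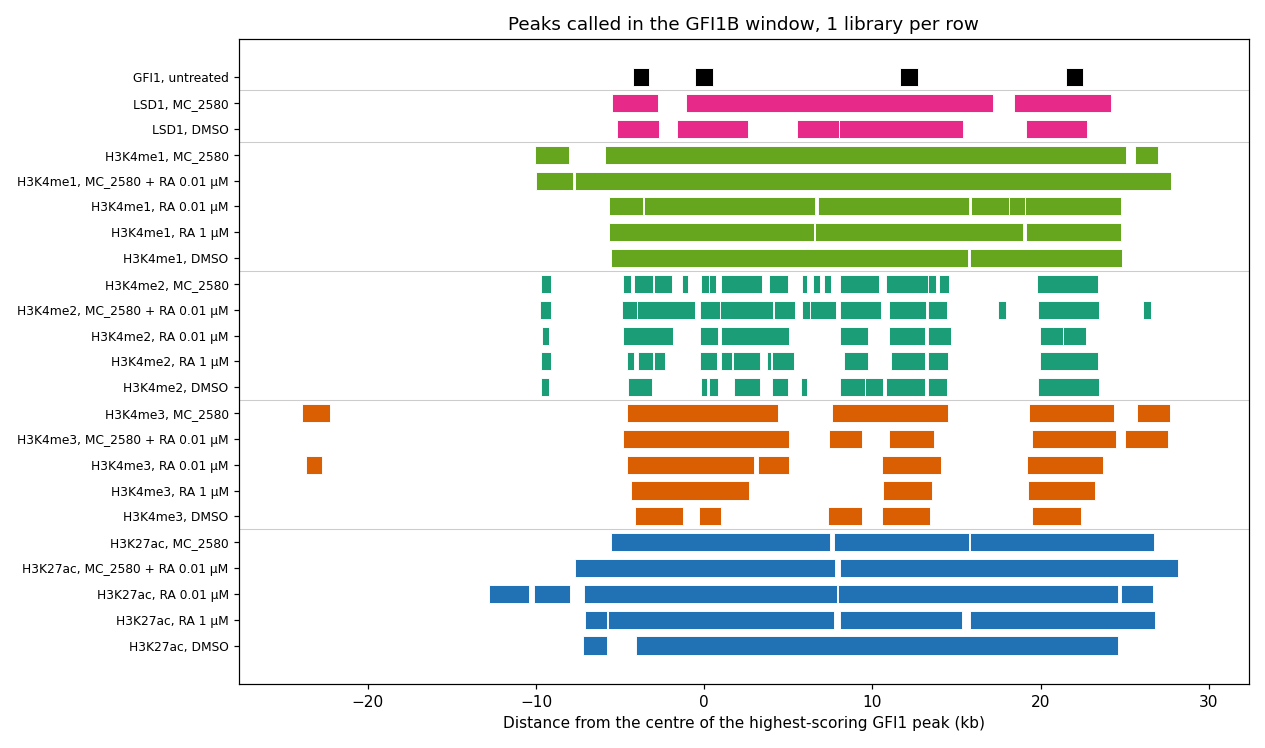
Peaks in the GFI1B window along the distance from the centre of the GFI1 peak that scored 485.47 (x axis, kb), with 1 row per antibody and condition (y axis). All 4 GFI1 bars stand above LSD1 in both rows; H3K4me3 near 0 is 1 continuous bar in MC_2580, the combination and RA 1 µM, and 2 short bars in DMSO.

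At KDM1A, the gene for LSD1 itself, LSD1 was called at different places in the inhibitor and in DMSO. In MC_2580 its peak was chr1:23217643-23220782, with a score of 642.71, on the H3K4me3 peak. In DMSO its peak was chr1:23212256-23213508, with 341.95, about 6330 bases away between centres. The single GFI1 peak of the window, chr1:23212408-23213181 with 102.14, lies on the DMSO peak, 87 bases from its centre. The DMSO score is under the lowest score in the MC_2580 list, 357, so a peak of that score could not have appeared there.

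The GFI1 and LSD1 site of KDM1A had no histone peak in DMSO and gained H3K4me1 in all 4 treated lists. The H3K4me1 region chr1:23211932-23213900 scored 191.88 in MC_2580, 546.99 in the combination, 103.66 in RA 0.01 µM and 85.97 in RA 1 µM. It was covered for 1666 bases in MC_2580, 1969 in the combination, 1295 in RA 0.01 µM and 1253 in RA 1 µM, against 0 in DMSO. H3K27ac at chr1:23210173-23214703 was called in the combination alone, with 104.53, as was a small H3K4me2 peak with 54.72. H3K4me3 was not called at the site in any list.

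The H3K4me3 peak of the KDM1A window was 8141 bases wide in MC_2580, 6393 in the combination, 6906 in RA 0.01 µM and 7134 in RA 1 µM, against 6502 for chr1:23217211-23223712 in DMSO. All 5 scored 3100, and the combination was narrower than DMSO. The H3K27ac peak at the same place, chr1:23217432-23220501 in DMSO, was 3070 bases wide there. H3K27ac over the window came to 2.95 kb in MC_2580, 6.93 kb in the combination, 2.54 kb in RA 0.01 µM and 2.56 kb in RA 1 µM, against 3.07 kb in DMSO. The combination stands apart through the GFI1 site region alone, since its other H3K27ac peak is no wider than in DMSO.

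**Figure D3:**
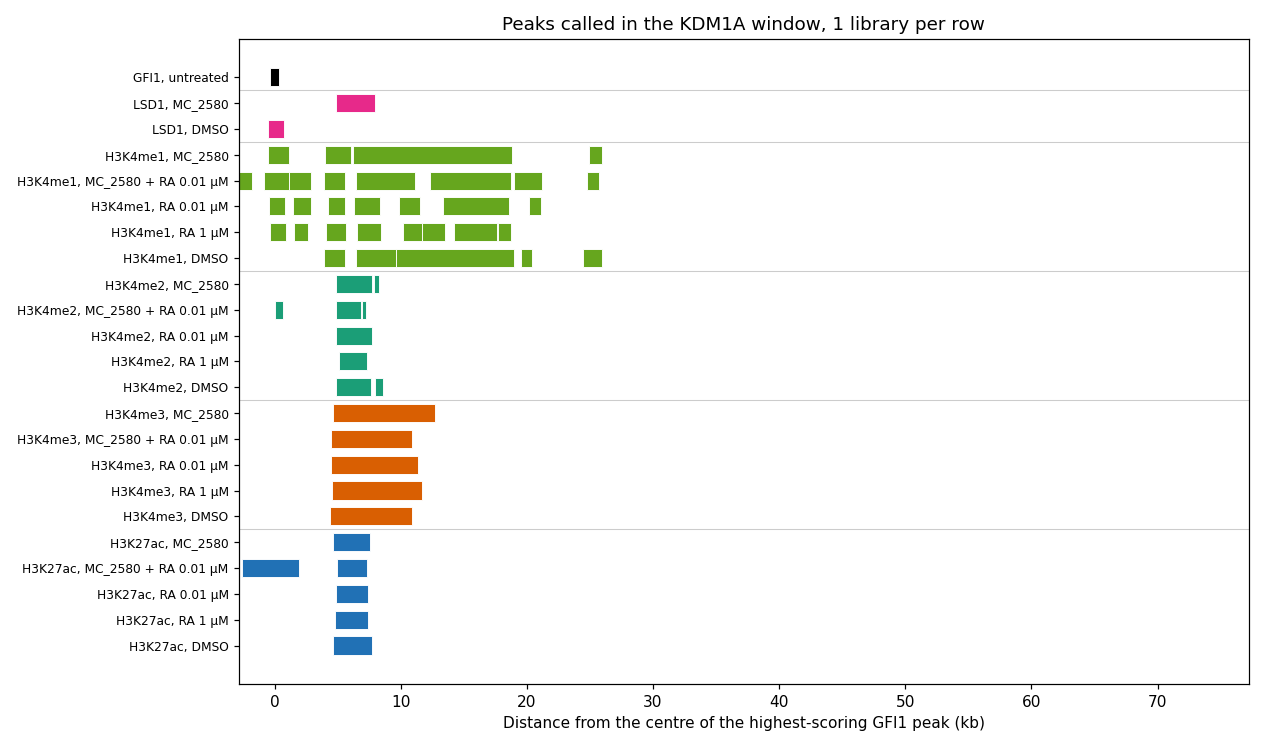
Peaks in the KDM1A window along the distance from the centre of the window's GFI1 peak, which scored 102.14 (x axis, kb), with 1 row per antibody and condition (y axis). LSD1 in DMSO sits at 0 with the GFI1 peak and LSD1 in MC_2580 sits on the H3K4me3 bars; H3K4me1 bars at 0 are present in the 4 treated rows only.

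In the window of RCOR1, the CoREST scaffold, LSD1 was called at a site without H3K4me3 and on the H3K4me3 peak. The site without H3K4me3 was not assigned to a gene. LSD1 was called there at chr14:102114536-102117257 in MC_2580, with a score of 782.38, and at chr14:102114313-102116940 in DMSO, with 461.39. The GFI1 peak chr14:102115980-102116895, with 100.99, lies on both, where every list of H3K4me1 and of H3K4me2 had a peak and no list of H3K4me3 did. H3K27ac was called there, at chr14:102114825-102117390, in RA 0.01 µM with 171.86 and in RA 1 µM with 87.51, and in neither MC_2580 list nor DMSO. On the H3K4me3 peak, LSD1 was called at chr14:102126609-102128934 with 1398.92 and chr14:102129087-102131724 with 366.22 in MC_2580, against chr14:102127413-102128870 with 326.71 in DMSO. The other GFI1 peaks, chr14:102174394-102175302 with 94.84 and chr14:102192765-102193374 with 56.46, lay on no LSD1 peak.

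H3K27ac spread over the RCOR1 window in RA 0.01 µM. It covered 9.9 kb in MC_2580, 14.1 kb in the combination, 26.8 kb in RA 0.01 µM and 14.8 kb in RA 1 µM, against 9.51 kb in DMSO, and had 10 peaks in RA 0.01 µM against 2 in DMSO. Of 10 joined H3K27ac regions, 8 were not called in DMSO, a count with no whole-list share beside it. Of the 10 peaks in RA 0.01 µM, 8 overlapped no DMSO peak, against 53.9% of that whole list. At chr14:102119758-102123518 the scores were 70.62 in MC_2580, 106.27 in the combination and 372.51 in RA 0.01 µM. At chr14:102163595-102167983 they were 172.16 in the combination, 190.2 in RA 0.01 µM and 256.13 in RA 1 µM. The region chr14:102272937-102276137 was called in RA 0.01 µM alone, with 200.16, and chr14:102108038-102112142, at the window's edge, in RA 0.01 µM with 269.41 and in RA 1 µM with 55.12. RA 0.01 µM also has the longest H3K27ac list of the 5, and the part of list length in this spread was not tested.

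The H3K4me3 peak of RCOR1 was 6057 bases wide in MC_2580, 6219 in the combination, 6539 in RA 0.01 µM and 6225 in RA 1 µM, against 5674 for chr14:102126495-102132168 in DMSO. The widest H3K27ac peak in DMSO, chr14:102125591-102131027, coincides with it. H3K4me1 formed 18 regions in the window, of which 13 were called in all 5 conditions. The region chr14:102109057-102111489, at the edge, was missing from RA 0.01 µM alone, and scored 53.69 in MC_2580, 120.99 in the combination and 141.19 in RA 1 µM, against 86.94 in DMSO.

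HMG20B had no GFI1 peak, and its only LSD1 peak, chr19:3507006-3510318 in MC_2580 with a score of 950.43, starts outside the window and covers 0.318 kb of it. In DMSO no LSD1 peak reached the window. H3K27ac covered 1.77 kb of the window in MC_2580, 6.23 kb in the combination, 15.9 kb in RA 0.01 µM and 5.13 kb in RA 1 µM, against 2.31 kb in DMSO, and the 3 treatments with RA stood above MC_2580 and DMSO. Part of this is the edge of a neighbouring block, whose DMSO peak chr19:3506494-3510485 is the widest H3K27ac peak of DMSO to touch the window. Inside the window, H3K27ac at chr19:3536191-3538446 was called in RA 0.01 µM alone, with 168.85. The widest H3K4me3 peak in DMSO was chr19:3523744-3525375, 1632 bases wide with 2208.4.

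H3K4me1 at HMG20B held a region missing from DMSO alone and one missing from MC_2580 alone. At chr19:3536170-3537680 the scores were 93.55 in MC_2580, 206.79 in the combination, 56.33 in RA 0.01 µM and 60.53 in RA 1 µM. At chr19:3512964-3515770 they were 622.03 in the combination, 82.61 in RA 0.01 µM and 199.76 in RA 1 µM, against 57.22 in DMSO. The combination covered the most, 9.0 kb of the window, against 5.96 kb in DMSO, with 5.61 kb in MC_2580, 3.75 kb in RA 0.01 µM and 6.57 kb in RA 1 µM.

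HDAC1, the deacetylase, had LSD1 at the 2 of its 3 H3K4me3 regions that were called in all 5 conditions. The first LSD1 peak was chr1:32528772-32531394 in MC_2580, with a score of 2058.13, and chr1:32528514-32531075 in DMSO, with 686.93. The second place held chr1:32573989-32578614 in MC_2580, with 1249.79, against chr1:32574658-32576773 with 369.59 and chr1:32576918-32578580 with 265.03 in DMSO. The GFI1 peak of the window, chr1:32578354-32578934 with 59.12, overlapped LSD1 there in both conditions, and H3K4me1 in all 5. It lies near the end of the window that borders MARCKSL1, and the second place was not assigned to a gene.

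H3K27ac at that second place of the HDAC1 window was missing from MC_2580 alone. The region chr1:32572250-32580777 scored 310.75 in the combination, 946.3 in RA 0.01 µM and 205.96 in RA 1 µM, against 316.49 in DMSO, and was covered for 0 bases in MC_2580, against 3160 in DMSO. Over the window, H3K27ac covered 2.76 kb in MC_2580, 8.36 kb in the combination, 13.1 kb in RA 0.01 µM and 9.81 kb in RA 1 µM, against 6.86 kb in DMSO. MC_2580 was the only treatment under DMSO, with a log2 ratio of -1.31, and it also has the shortest H3K27ac list. H3K27ac at the first place, chr1:32528069-32531769 in DMSO, was called in all 5.

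H3K4me3 at HDAC1 covered 13.8 kb in MC_2580, 8.73 kb in the combination, 13.3 kb in RA 0.01 µM and 11.3 kb in RA 1 µM, against 8.97 kb in DMSO. The combination was level with DMSO while each of its agents alone was above it. Its widest peak in DMSO, chr1:32529178-32534655, was 5478 bases wide, and this place scored 3100 in all 5 lists. A region at chr1:32541929-32544019 was called in MC_2580 with 109.45 and in RA 0.01 µM with 63.63. H3K4me1 at chr1:32543878-32546607 was missing from RA 0.01 µM alone, and scored 106.31 in MC_2580, 82.24 in the combination and 57.67 in RA 1 µM, against 241.19 in DMSO.

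**Figure D4:**
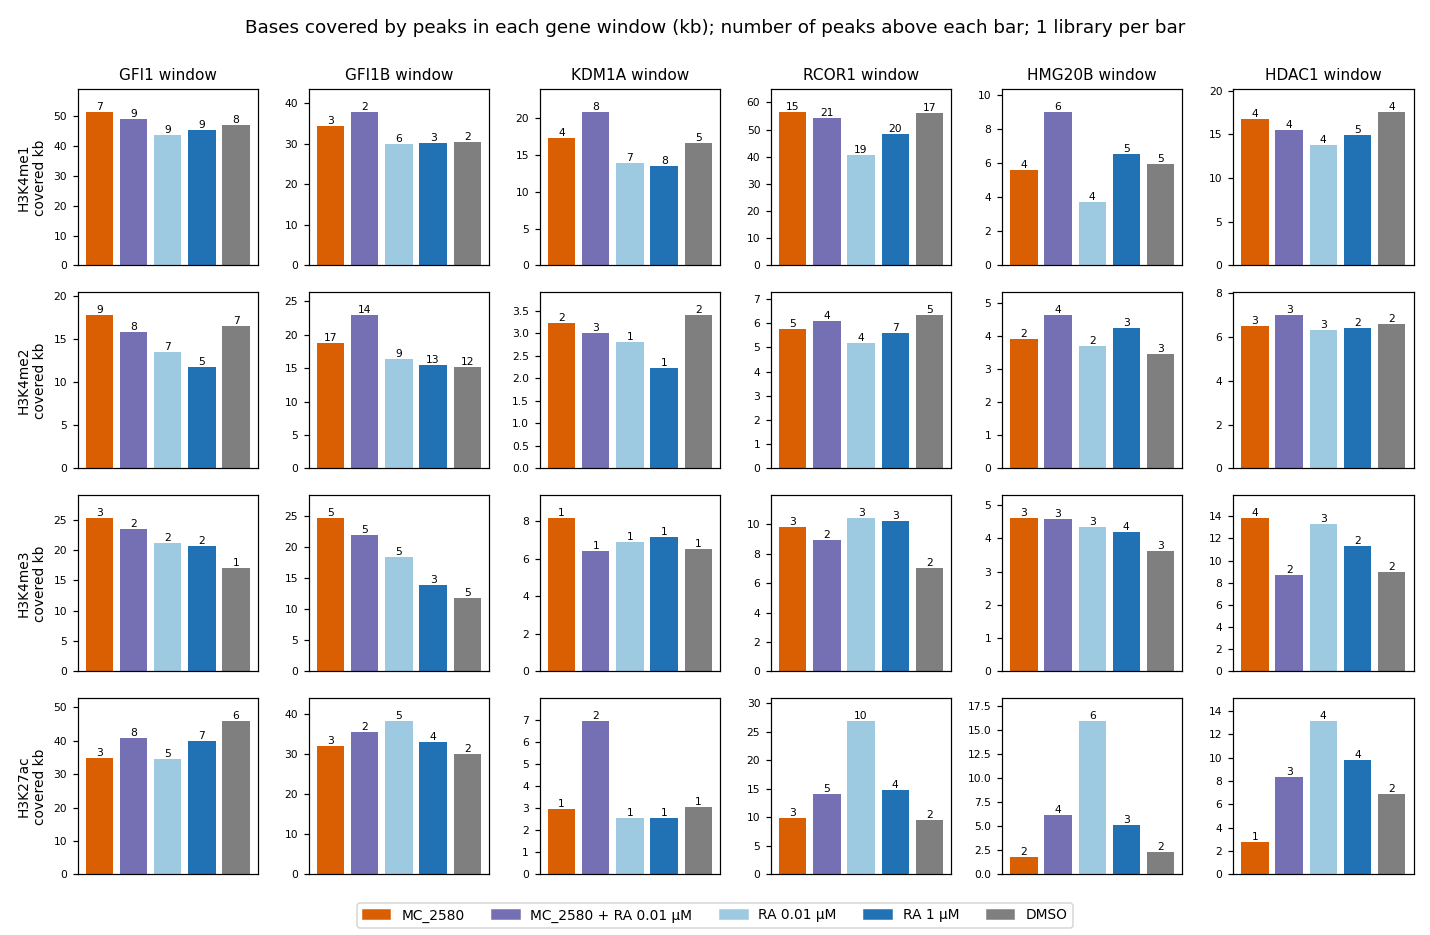
Bases covered by peaks in each window, in kb from 0 (y axes, scaled per panel), for 4 histone marks (rows) at 6 loci (columns); bars are 1 library each and carry their number of peaks. H3K4me3 at GFI1B is 24.6 kb in MC_2580 and falls bar by bar to 11.8 kb in DMSO, and H3K27ac at RCOR1, HMG20B and HDAC1 is highest in RA 0.01 µM.

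Counted over all 6 loci, most shares of peaks gained or lost were below those of the whole lists. In each case the whole-list share fell inside the interval of the windows. A peak of a treated list is gained where no DMSO peak of the same mark overlaps it, and a DMSO peak is lost where no peak of the treated list does. For H3K4me1 most DMSO peaks were kept in the windows, as they were over the whole list. With MC_2580, 4 of 37 window peaks were gained (10.8%, interval 3.03 to 25.4%, against 8.54% of the whole list). Of the DMSO peaks, 4 of 41 were lost with MC_2580 (9.76%, interval 2.72 to 23.1%, against 13.1%). With the combination, 10 of 50 window peaks were gained (20.0%, interval 10.0 to 33.7%, against 21.9% of the whole list). Losses with the combination came to 2 of 41 DMSO peaks (4.88%, interval 0.596 to 16.5%, against 7.79%). The gains with the combination included the KDM1A site named above. With RA 0.01 µM, 4 of 49 window peaks were gained (8.16%, interval 2.27 to 19.6%, against 11.7% of the whole list). RA 0.01 µM had lost 5 of 41 DMSO peaks (12.2%, interval 4.08 to 26.2%, against 19.5%). With RA 1 µM, 6 of 50 window peaks were gained (12.0%, interval 4.53 to 24.3%, against 14.2% of the whole list). At this dose 3 of 41 DMSO peaks were lost (7.32%, interval 1.54 to 19.9%, against 14.0%). Joined over the 5 conditions, H3K4me1 made 43 regions, of which 27 were called in all 5 and 10 were missing from DMSO. Counts of joined regions have no whole-list share beside them here, so they describe the windows only.

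H3K4me2, a substrate of LSD1 as H3K4me1 is, changed in a similar number of places. With MC_2580, 5 of 38 window peaks were gained (13.2%, interval 4.41 to 28.1%, against 22.3% of the whole list). Of the DMSO peaks, 0 of 31 were lost with MC_2580 (0.0%, interval 0.0 to 11.2%, against 11.0%). With the combination, 8 of 36 window peaks were gained (22.2%, interval 10.1 to 39.2%, against 23.2% of the whole list). Losses with the combination came to 4 of 31 DMSO peaks (12.9%, interval 3.63 to 29.8%, against 14.4%). With RA 0.01 µM, 1 of 26 window peaks were gained (3.85%, interval 0.0973 to 19.6%, against 14.3% of the whole list). RA 0.01 µM had lost 5 of 31 DMSO peaks (16.1%, interval 5.45 to 33.7%, against 19.7%). By locus, the DMSO peaks lost with RA 1 µM were 3 of 7 at GFI1, 1 of 12 at GFI1B and 1 of 2 at KDM1A. With RA 1 µM, 7 of 31 window peaks were gained (22.6%, interval 9.59 to 41.1%, against 22.1% of the whole list). At this dose 5 of 31 DMSO peaks were lost (16.1%, interval 5.45 to 33.7%, against 19.5%).

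The shares of H3K4me3 peaks gained were near or below those of the whole lists. Gains fell at GFI1, GFI1B, RCOR1 and HDAC1. There were none at KDM1A, with 1 H3K4me3 peak per list, or at HMG20B, with 3 or 4, so few peaks could be gained there. With MC_2580, 6 of 19 window peaks were gained (31.6%, interval 12.6 to 56.6%, against 33.5% of the whole list). Of the DMSO peaks, 0 of 14 were lost with MC_2580 (0.0%, interval 0.0 to 23.2%, against 2.2%). With the combination, 2 of 15 window peaks were gained (13.3%, interval 1.66 to 40.5%, against 26.6% of the whole list). Losses with the combination came to 0 of 14 DMSO peaks (0.0%, interval 0.0 to 23.2%, against 6.29%). The 1 DMSO peak lost in each list of RA alone was at GFI1B. With RA 0.01 µM, 5 of 17 window peaks were gained (29.4%, interval 10.3 to 56.0%, against 29.2% of the whole list). RA 0.01 µM had lost 1 of 14 DMSO peaks (7.14%, interval 0.181 to 33.9%, against 3.97%). With RA 1 µM, 2 of 15 window peaks were gained (13.3%, interval 1.66 to 40.5%, against 25.6% of the whole list). At this dose 1 of 14 DMSO peaks were lost (7.14%, interval 0.181 to 33.9%, against 6.12%). Of 19 joined H3K4me3 regions, 12 were called in all 5 conditions, 7 were missing from DMSO and 0 were called in DMSO alone. These counts have no whole-list share beside them, and the H3K4me3 list of DMSO is the shortest of the 5.

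H3K27ac had 29 joined regions, of which 9 were called in all 5 conditions, and its lists differ in length. No whole-list share of joined regions stands beside this count. With MC_2580, 1 of 13 window peaks were gained (7.69%, interval 0.195 to 36.0%, against 11.2% of the whole list). Of the DMSO peaks, 5 of 15 were lost with MC_2580 (33.3%, interval 11.8 to 61.6%, against 35.0%). Lost peaks with MC_2580 were 3 at GFI1, 1 at GFI1B and 1 at HDAC1. With the combination, 5 of 24 window peaks were gained (20.8%, interval 7.13 to 42.2%, against 37.1% of the whole list). Losses with the combination came to 2 of 15 DMSO peaks (13.3%, interval 1.66 to 40.5%, against 21.2%). With RA 0.01 µM, 18 of 31 window peaks were gained (58.1%, interval 39.1 to 75.5%, against 53.9% of the whole list). RA 0.01 µM had lost 3 of 15 DMSO peaks (20.0%, interval 4.33 to 48.1%, against 18.3%). Gains with RA 0.01 µM were 8 at RCOR1, 4 at HMG20B, 3 at GFI1B, 2 at HDAC1 and 1 at GFI1. With RA 1 µM, 5 of 23 window peaks were gained (21.7%, interval 7.46 to 43.7%, against 33.3% of the whole list). At this dose 3 of 15 DMSO peaks were lost (20.0%, interval 4.33 to 48.1%, against 20.9%).

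LSD1 gained 4 of 13 peaks with MC_2580 in the windows (30.8%, interval 9.09 to 61.4%, against 41.4% of the whole list), 1 each at GFI1, KDM1A, RCOR1 and HMG20B. It lost 1 of 14 DMSO peaks (7.14%, interval 0.181 to 33.9%, against 7.79%), the one at KDM1A. Over the 38 shares, the whole-list value fell inside the window interval for 36. The 2 outside were the shares of GFI1 peaks on LSD1, which count the same 18 GFI1 peaks against the 2 LSD1 lists. Each interval stands alone, with no allowance for the 38 shares compared.

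**Figure D5:**
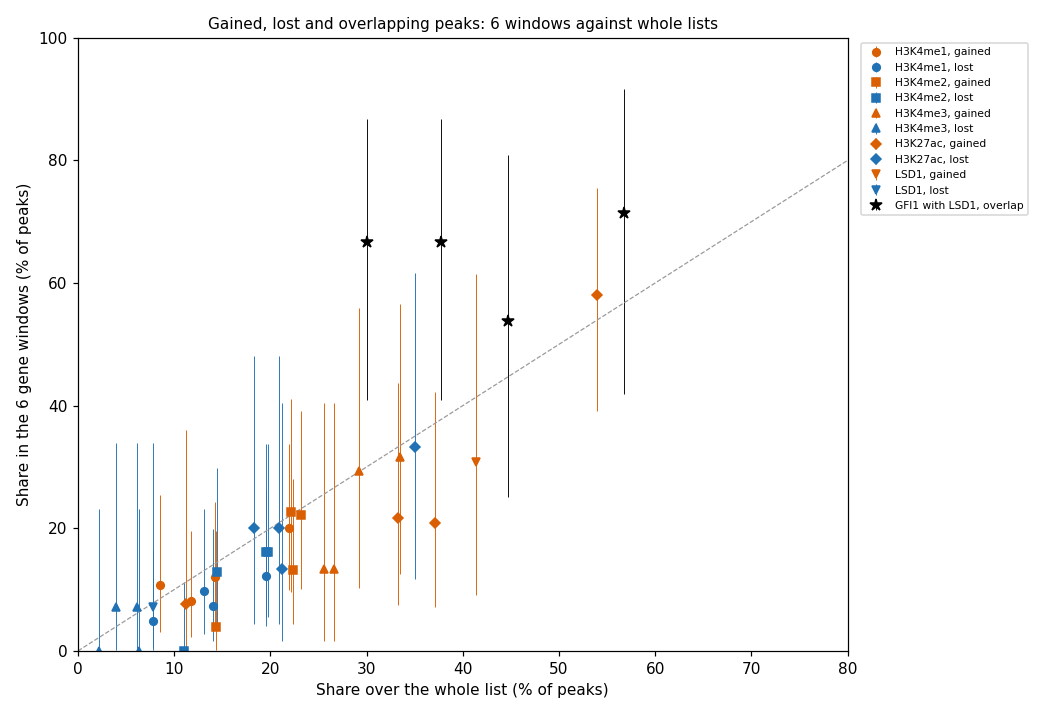
Share of peaks gained, lost or shared between GFI1 and LSD1 in the 6 windows (y axis, %) against the same share over the whole list (x axis, %), 1 point per comparison with its exact binomial 95% interval; the dashed line marks equal shares. Most gained and lost shares lie under the line, with intervals that reach the whole-list share. The 2 stars for GFI1 peaks on LSD1, both at 66.7%, stand above the line with intervals from 41.0 to 86.7%.

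Covered bases were set against 100 kb tiles of the genome with at least 1 kb under the mark in either condition. A window was counted where it was covered at least 1.5-fold more or less than in DMSO. For H3K4me3, GFI1B and HDAC1 passed in MC_2580, where 51.5% of tiles did, GFI1B in the combination (31.9% of tiles) and GFI1B in RA 0.01 µM (44.8%). For LSD1, GFI1, KDM1A and RCOR1 passed in MC_2580, where 64.1% of tiles did; KDM1A no longer passed in windows widened by 10 kb, where its log2 ratio was 0.4. H3K27ac was lower at HDAC1 in MC_2580 (34.8% of tiles), and higher at KDM1A and HMG20B in the combination (33.4%), at RCOR1, HMG20B and HDAC1 in RA 0.01 µM (50.6%) and at RCOR1 and HMG20B in RA 1 µM (29.8%). H3K4me1 was higher at HMG20B in the combination (16.6%) and lower there in RA 0.01 µM (32.3%). H3K4me2 was higher at GFI1B in the combination (12.0%) and lower at KDM1A in RA 1 µM (17.6%). Of these, 7 ended under at least 1 other setting: LSD1 at KDM1A, H3K4me3 at GFI1B in RA 0.01 µM, H3K27ac at RCOR1 and HMG20B in RA 1 µM, H3K4me1 at HMG20B in the combination and both for H3K4me2. Each count of members, out of 6, is near or below the share of tiles, and the windows, of 30 to 170 kb, differ in length from the tiles.

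Summed over the 6 windows, H3K4me3 covered 86.1 kb in MC_2580 against 55.1 kb in DMSO, a ratio of 1.56 where the whole lists gave 1.57. For H3K27ac the ratio of MC_2580 to DMSO was 0.863 in the windows and 0.748 over the whole lists, and for RA 0.01 µM it was 1.34 and 1.56. LSD1 covered 62.2 kb in MC_2580 against 42.8 kb in DMSO, a ratio of 1.45 where the whole lists gave 1.92. H3K4me1 gave ratios of 1.05 in MC_2580 and 0.841 in RA 0.01 µM, with whole-list ratios of 0.989 and 0.793. Covered length depends on how many peaks each list called, and its part in these ratios was not tested.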

How the data were processed

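ChIP-seq of NB4 cells gave 25 samples, of which 23 have a peak list; the 2 inputs have none and were not analysed here. The sources used here name no separate cultures, and each group has 1 library. Per the submitters' processing notes, the hg18 build, MACS 1.4.1, Bowtie 1.0.1, FastQC 0.10.0 and 0.11.5, CASAVA 1.8 and bcl2fastq 2 were used, with no roles named. Each deposited list gives chromosome, start, end and a score per peak, which the authors deposited on the scale of the caller's transformed p-value. The sources used here do not say how the LSD1 lists were filtered. Read depth is unknown, so the precision of a missing call is too.

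Peaks overlapping the 6 windows by at least 1 base were taken, and overlaps were counted with Python 3.11.15 and checked on simulated peaks. Shares carry exact Clopper-Pearson 95% intervals (SciPy 1.17.1), for counting error only; no test between conditions is possible. Joined regions merge the overlapping peaks of a mark over the 5 conditions, and they are counted in the windows only. Peaks named are those of GFI1 and LSD1, the widest H3K4me3 and H3K27ac peak of each window in DMSO, and joined regions called in 1 to 4 conditions that are at least 2 kb wide or score 200 or more. At GFI1, where GFI1 peaks are many, coordinates are given for the 3 of highest score and for those on LSD1 in both lists. Alternatives were a minimum score of 100, 50% reciprocal overlap, joining peaks within 1 kb, windows widened by 10 kb and 1 minimum score for both LSD1 lists. The splits of GFI1 peaks by score and by H3K4me1, and the overlap by peak centre, were added after seeing the data. Members and lists were chosen with earlier results of these data known. Promoter sequence and neighbouring genes are from RefSeq on GRCh38.p14, matched by symbol for all 6 genes.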

Additional observations from a re-analysis of the deposited data

Results flagged for a closer look

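H3K4me3 at the HDAC1 window moved in opposite directions with MC_2580 depending on RA. Its covered bases were higher with MC_2580 than with DMSO, by 0.62 on the log2 scale. With RA at 0.01 µM in both, they were lower with MC_2580 than without it, at -0.61. The whole H3K4me3 lists moved in the same 2 directions, so the pattern is not particular to HDAC1. Their covered length was 1.57 times that of DMSO in MC_2580. It was 84.3 Mb in the combination, under the 95.8 Mb in RA 0.01 µM. Each value rests on 1 library per condition, the difference was not tested, and the combination is the library whose title and treatment field disagree on the RA dose.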

How the results depend on the processing

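No direction reversed under any other setting tried. With a minimum score of 100, 6 of 36 shares moved beyond their interval: H3K4me2 gained with the combination was 7.41%, H3K4me3 lost with RA 0.01 µM and with RA 1 µM 0.0% each, H3K27ac gained with MC_2580 0.0%, and GFI1 peaks on LSD1 90.9% in MC_2580 and 100.0% in DMSO.

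Requiring 50% reciprocal overlap moved 21 of 38. GFI1 peaks on LSD1 were then 0.0% in MC_2580 and 11.1% in DMSO, and LSD1 peaks on GFI1 0.0% in MC_2580 and 14.3% in DMSO. GFI1 peaks in the windows were 581 to 1604 bases wide, LSD1 peaks 2022 to 18268 in MC_2580 and 1253 to 7419 in DMSO, so most pairs cannot reach that overlap by width. With the GFI1 peak's centre inside the LSD1 peak, a rule added after seeing the data, the share was 61.1% in both conditions. H3K4me1 lost was 24.4% with MC_2580 and 26.8% with RA 0.01 µM, and gained 38.8% with RA 0.01 µM and 30.0% with RA 1 µM. H3K4me2 gained was 36.8% with MC_2580, 44.4% with the combination, 30.8% with RA 0.01 µM and 41.9% with RA 1 µM, and lost 22.6% with MC_2580, 35.5% with the combination and 41.9% with each dose of RA alone. H3K4me3 lost was 35.7% with MC_2580 and 28.6% with the combination. H3K27ac gained was 58.3% with the combination and 56.5% with RA 1 µM, and LSD1 lost 57.1%.

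Joining peaks within 1 kb moved 2 shares, H3K4me2 lost with the combination and with RA 0.01 µM, both to 0.0%. With 1 minimum score for both LSD1 lists, LSD1 lost was 0.0% of 9 peaks, since the KDM1A peak of DMSO falls below it. Widening the windows moved 0 of 38 shares. Covered bases moved in 11 of 96 values with the minimum score, 4 of 101 with joining and 5 of 101 with widening, and 7 differences of 1.5-fold or more from DMSO fell under that size. On the log2 scale, widening gave 0.4 for LSD1 at KDM1A and, at HMG20B, 0.53 for H3K27ac in RA 1 µM and 0.29 for H3K4me1 in the combination (0.38 with joining). Joining gave 0.44 at GFI1B for H3K4me2 in the combination and 0.54 for H3K4me3 in RA 0.01 µM. The minimum score gave -0.28 for H3K4me2 at KDM1A and 0.46 for H3K27ac at RCOR1, both in RA 1 µM, and raised GFI1B H3K4me3 in RA 1 µM to 0.69. Other causes were not tested. No paired analysis was possible because each group has 1 library. Unknown depth limits every absent peak.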
